A study of Mus musculus with 4 samples.

Results

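The interleukin-6 (IL-6) family of cytokines and receptors was followed through single cells sorted as cancer-associated fibroblasts, the fibroblasts of a tumour's stroma, from mouse colon tumours. Its 7 genes were taken by symbol, and they and the gene lists used below were chosen with earlier results of these data known. The genes are the cytokines Il6, Lif and Il11, the receptor chains Il6st, Osmr and Lifr, and the feedback inhibitor Socs3. They are 7 of the 16305 genes listed over 4 plates. The tumours grew in the colon of untreated female C57BL6J mice from a transplanted line that the labels name APTKA, and 1 plate of 384 wells was sorted from each. The labels give 1 group and no age, gate or genotype beyond these names, so tumours 1 to 4 were its replicates and comparisons were made between groups of wells from the same tumours. They do not state whether the tumours came from separate mice, and p-values measure only the spread between these samples.

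Spike-in RNA left out, the plates held 612734, 3165550, 2805112 and 2727191 transcripts in tumours 1 to 4. Wells under 1000 transcripts, or with over 30% of them mitochondrial, were dropped, which left 43, 250, 243 and 204 wells (740 of 1536). Tumour 1 stood apart: 87 of its 130 wells with enough transcripts were over the mitochondrial limit, against 5 to 14 on the other plates. Its file name also carries a different code, read here as that of a flow cell. The labels name no batch, and tumour, plate quality and a possible difference in sequencing cannot be told apart. Results below are given with and without it where it matters. By fixed markers, 629 of the kept wells were fibroblast wells (30, 220, 211 and 168), the cell type that the labels name. In these wells the summed level of 8 immune markers was 0.0208 to 0.0587 transcripts per 10000 and that of 8 endothelial markers 0.0764 to 0.289. Markers of glia (0.626 to 1.44), of pericytes (1.80 to 3.28) and of smooth muscle (3.15 to 6.19) were higher. Red-cell genes stood at 5.92, 20.3, 59.1 and 36.7 in tumours 1 to 4, above all of these in tumours 2 to 4.

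Cytokines of the IL-6 family act through receptor complexes that share the chain gp130, encoded by Il6st. IL-6 and IL-11 first bind receptors of their own, encoded by Il6ra and Il11ra1, whereas leukaemia inhibitory factor (Lif) and oncostatin M pair gp130 with the chains encoded by Lifr and Osmr. The complexes switch on JAK kinases and the transcription factor STAT3, which induces Socs3, whose product binds gp130 and shuts the signal off. In tumour stroma, IL-6 is widely used as a marker of inflammatory fibroblasts, and IL-11 is known from wound repair and fibrosis of the gut.

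The 250 bases before the annotated start of 4 members are printed because the results turn on the 3 cytokines, and Socs3 is the pathway's feedback gene. Sequences are from RefSeq, build GRCm38.p6, 5′ to 3′ on the gene's strand, and capitals mark matches to 4 motifs searched on both strands: TGANTCA (AP-1), the NF-kB motif (10 letters), TTGNNCAA (C/EBP) and TTCNNNGAA (STAT).
Il6 (chr5:30012864-30013113, plus strand): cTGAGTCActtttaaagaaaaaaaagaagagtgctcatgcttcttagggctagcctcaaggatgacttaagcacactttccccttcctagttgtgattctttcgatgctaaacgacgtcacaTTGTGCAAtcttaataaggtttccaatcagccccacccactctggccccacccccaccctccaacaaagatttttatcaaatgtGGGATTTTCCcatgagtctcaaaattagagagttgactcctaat
Lif (chr11:4257318-4257567, plus strand): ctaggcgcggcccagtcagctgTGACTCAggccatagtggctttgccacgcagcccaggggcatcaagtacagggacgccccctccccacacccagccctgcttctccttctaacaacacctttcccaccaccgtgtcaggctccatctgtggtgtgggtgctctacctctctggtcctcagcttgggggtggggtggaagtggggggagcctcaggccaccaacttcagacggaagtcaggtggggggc
Il11 (chr7:4778142-4778391, minus strand): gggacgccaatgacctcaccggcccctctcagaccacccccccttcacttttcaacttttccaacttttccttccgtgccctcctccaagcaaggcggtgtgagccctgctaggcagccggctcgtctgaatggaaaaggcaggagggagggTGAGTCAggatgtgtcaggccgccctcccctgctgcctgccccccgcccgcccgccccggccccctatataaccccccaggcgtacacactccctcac
Socs3 (chr11:117969367-117969616, minus strand): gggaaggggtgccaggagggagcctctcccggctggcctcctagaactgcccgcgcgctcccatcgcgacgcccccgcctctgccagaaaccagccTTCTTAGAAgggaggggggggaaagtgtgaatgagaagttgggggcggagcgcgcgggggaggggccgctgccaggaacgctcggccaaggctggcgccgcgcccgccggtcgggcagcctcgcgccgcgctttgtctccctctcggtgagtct
The AP-1 letters stood in the windows of all 3 cytokines (249 to 243 bases before the start of Il6, 228 to 222 before Lif, 98 to 92 before Il11). Of 32851 promoter windows of this length, 6.75% held them. The NF-kB letters (1.41% of windows) and the C/EBP letters (5.65%) were found before Il6, 44 to 35 and 128 to 121 bases from its start, and not in the windows of the other members. The STAT letters (7.02%) were found before Socs3, 154 to 146 bases from the start. The other windows searched, 1 more of Il11, 1 each of Il6st and Osmr and 2 of Lifr, held none of these letters. The Il11 window shown is the one of 2 with a match. A match describes the sequence and is neither a bound site nor a cause.

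In the annotation of the same genome (GRCm38, GENCODE M21), Il6 lies at chr5:30013114-30019981 on the plus strand, Lif at chr11:4257557-4272514 on the plus strand and Il11 at chr7:4772373-4782859 on the minus strand. The receptor genes Osmr (chr15:6813577-6874969, minus) and Lifr (chr15:7090614-7197489, plus) are neighbours on chromosome 15. Il6st lies at chr13:112464070-112510086 (plus) and Socs3 at chr11:117966079-117970047 (minus). By these spans the windows shown for Il11 and Socs3 lie inside the gene, and the Il11 window at the outer start is the one with no match.

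The 3 cytokines were each found in a minority of fibroblast wells, whereas the shared receptor chain and the inhibitor were found in most. Levels are transcripts of the gene per 10000 transcripts of the wells. The assay counts 1 tag per molecule, so gene length does not enter them. Il6 stood at 0.115, 3.30, 0.83 and 1.85 in tumours 1 to 4 and was found in 2 of 30, 93 of 220, 38 of 211 and 39 of 168 wells. Lif stood at 1.78, 0.306 and 1.5 in tumours 2 to 4, where 25.9, 7.58 and 23.2% of wells held a transcript. It was not listed for tumour 1, where 0 of 30 wells allows a share of up to 10%. Il11 stood at 0.0764, 1.44, 1.42 and 2.02 and was found in 6.67, 20, 21.8 and 23.2% of wells. Tumour 2 was highest for Il6 and Lif and tumour 4 for Il11, and tumour 1 was lowest for all 3.

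Il6st, the gp130 chain, stood at 2.90, 1.70, 2.41 and 2.37, in 65.9 to 73.9% of wells. Osmr, the chain for oncostatin M, stood at 1.45, 1.10, 1.32 and 1.33, in 46.7 to 64.9% of wells. Lifr stood at 1.45, 0.371, 0.650 and 0.427, in 29.1 to 46.7%. The level of all 3 receptor chains was highest in tumour 1, the reverse of the cytokines, whereas its share of wells with Osmr was the lowest (46.7%). These levels of Il6st, Osmr and Lifr in tumour 1 rest on 76, 38 and 38 transcripts. The transcripts that levels are divided by include the ribosomal RNA Rn45s. It made up 3.55, 23.1, 10.6 and 10.1% of transcripts on the plates of tumours 1 to 4, and its part in this order was not tested. Socs3 stood at 1.07, 3.35, 4.77 and 4.10. It was found in 33.3% of wells of tumour 1 and in 75.0, 75.4 and 75.0% in the others. The gene for the IL-6 receptor proper, Il6ra, was found beside Il6st in 17.8% of the 629 wells, and Il11ra1 beside Il6st in 20.4%.

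By the mean over tumours the order was Socs3 (3.32 ± 1.61, SD, n = 4), Il6st (2.35 ± 0.492), Il6 (1.52 ± 1.38), Osmr (1.30 ± 0.146), Il11 (1.24 ± 0.824), Lif (0.898 ± 0.876) and Lifr (0.725 ± 0.499). No neighbours in this order differed by more than their spread. Without tumour 1, Lif moved from 0.898 to 1.20 ± 0.784 (n = 3) and Lifr from 0.725 to 0.483 ± 0.147, and Socs3 stood at 4.07 ± 0.713. Il6 then stood at 1.99 ± 1.24, and Il11 (1.63 ± 0.340) passed Osmr (1.25 ± 0.128) in the order. Among receptor chains the spread over tumours was small for Osmr, and among cytokines it was close to the mean for Il6 and Lif.

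**Figure D1:**
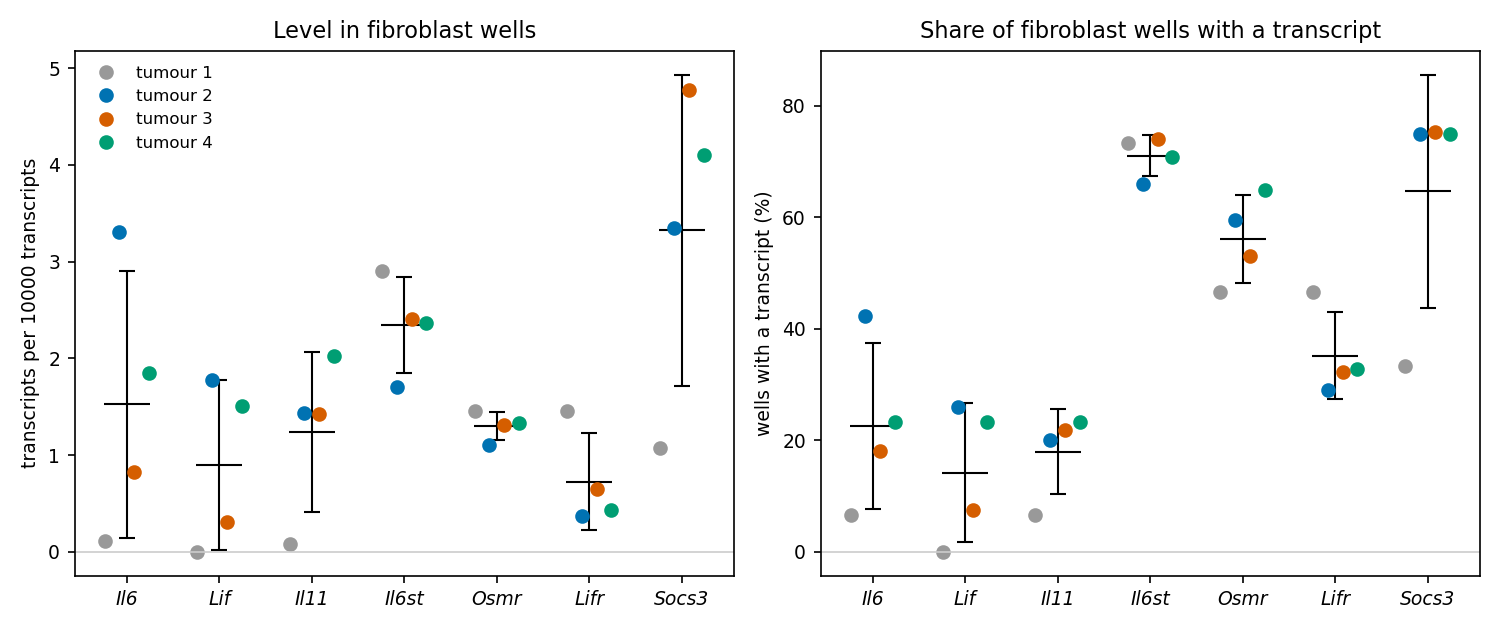
Level (transcripts per 10000, left) and share of fibroblast wells with a transcript (%, right) of the 7 genes; points are tumours 1 to 4, lines the mean and SD (n = 4). In level, tumour 1 lies lowest for the cytokines and Socs3 (1.07 against 3.35 to 4.77) and highest for the 3 receptor chains; in share it is lowest for Osmr (46.7%).

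Cytokine transcripts sat in few wells. The 22, 21 and 16 wells richest in Il6 in tumours 2, 3 and 4 held 78.4, 91.4 and 85.5% of its transcripts, and the same numbers of wells held 90.4 to 100% for Lif and 91.4 to 94.6% for Il11. For Il6st such wells held 38.7 to 43.8%, and for Socs3 35.9 to 46.6%. Such a share tends to be higher for a gene found in fewer wells. In tumour 3 Lif was found in only 16 wells, fewer than the 21 counted, so 100% was fixed there. The richest single well held 245 transcripts of Il6, 132 of Lif and 175 of Il11. Wells in which a gene was found were deeper: in tumour 2 the median was 13832 transcripts in wells with Il6 and 6844 in wells without. Cytokine levels below therefore rest on few wells, and shares of wells in groups of unlike depth are also given at equal depth.

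Of the 629 fibroblast wells, 326 (51.8%) held none of the 3 cytokines, 209 held 1 of them, 76 held a pair and 18 all 3. Il6 was alone in 92 wells, Il11 in 83 and Lif in 34. Il6 and Lif were together in 64 wells, against 34 for Il6 with Il11 and 32 for Lif with Il11. Receptor chains overlapped more: Il6st and Osmr were together in 299 wells (47.5%) and Il6st and Lifr in 168 (26.7%). These counts use each well's full depth.

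Thinned to 2000 transcripts (28, 202, 194 and 155 wells were deep enough), Lif was found in 24.4, 11.1 and 33.3% of wells with Il6 and in 7.64, 1.14 and 4.38% of wells without in tumours 2, 3 and 4, so it was more frequent beside Il6 in 3 of 3 tumours. The difference was 18.6 ± 9.61 percentage points (SD, n = 3; exact two-sided sign-flip permutation test over tumours, p = 0.25, the smallest that 3 tumours allow; 0.5 after Benjamini-Hochberg adjustment over 10 pairs). At full depth it was 24.6 ± 8.40 points. Il11 stood in 7.41% of the wells of tumours 2 to 4 with Il6 and in 11.3% of those without, a difference of -3.41 ± 3.86 points over tumours (n = 3, exact permutation p = 0.5). Il6st was 15.6 ± 11.3 points more frequent in wells with Il6 and Socs3 9.27 ± 7.03, both in 3 of 3 tumours (exact permutation p = 0.25 each). Il6st was 11.2 ± 7.98 points more frequent in wells with Osmr, in 4 of 4 tumours (exact permutation p = 0.125, the smallest that 4 tumours allow). None of the 10 pairs could pass 0.05 in this design. Tumour 1 gave no value for pairs led by Il6 or Lif.

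To compare fibroblast wells of unlike state, the wells of each tumour were ranked by the mean z-score of a list of genes that holds no member, and the transcripts of the upper and lower tercile (209 wells each) were summed per tumour. The 5 lists were an inflammatory list (15 genes, mainly chemokines with Ptgs2, Icam1 and Nfkbia), a progenitor list (12 genes such as Pi16, Cd34 and Ly6a), a wound list (11 genes such as Mmp13, Plau and Tnc), a contractile list (12 genes such as Acta2 and Tagln) and an immediate-early list (15 genes such as Fos, Egr1 and Hspa1a). Sums were compared by edgeR's quasi-likelihood test and a tumour term as block, with Benjamini-Hochberg adjustment over the tested genes outside the list. A tercile is a range of a score: 96 to 159 of the 629 wells lay within 0.05 of a boundary. The lists overlap in wells: 55% of the upper inflammatory wells were also upper progenitor wells, and 54.1% of the upper contractile wells were upper wound wells. The upper tercile was deeper for all 5 lists, by medians of 13345 against 5026 transcripts for the inflammatory list at the widest and 10090 against 6534 for the immediate-early list at the narrowest.

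Wells rich in inflammatory genes held more Il6 and Lif, and less clearly more Il6st and Socs3. Il6 stood at 0, 0.404, 0.0187 and 0.0191 per 10000 in the lower terciles of tumours 1 to 4 and at 0.215, 6.97, 1.56 and 3.92 in the upper ones. It was higher in 4 of 4 tumours, and the ranges overlapped through tumour 1. The log2 fold change was 5.03 ± 0.43 (SE; edgeR adjusted p = 1.5e-05), with 1354 transcripts in the upper and 28 in the lower terciles. Of the 13 alternatives in which Il6 was tested, the call ended in 1, the fit without the tumour block (4.46, edgeR adjusted p = 0.0877). Lif stood at 0, 0.856, 0 and 0.191 against 0, 3.35, 0.605 and 3.01, higher in each of the 3 tumours that list it (log2 fold change 3.02 ± 0.44, edgeR adjusted p = 0.00147). This call ended in 2 of the 13 alternatives in which Lif was tested, by DESeq2 (3.16, adjusted p = 0.404) and without the block (2.44, edgeR adjusted p = 0.371). Il11 was higher in tumours 2 and 4 (0.109 to 0.894 and 0.803 to 1.98) and lower in tumours 1 and 3 (0.232 to 0 and 3.05 to 1.10). Its log2 fold change was 0.56 ± 0.55 (edgeR adjusted p = 0.74). It was 1.89 without tumour 3 (adjusted p = 0.0233) and 1.91 outside the upper immediate-early tercile (adjusted p = 0.00744), and below 0 in 4 other alternatives.

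Among receptors, Il6st rose from 2.55, 0.963, 1.70 and 1.59 to 3.72, 2.40, 2.81 and 3.09, in 4 of 4 tumours (log2 fold change 0.98 ± 0.21, edgeR adjusted p = 0.0154). Osmr (0.61 ± 0.22, adjusted p = 0.143) and Lifr (0.78 ± 0.30, adjusted p = 0.180) did not pass. Socs3 rose from 0.696, 1.57, 3.56 and 2.96 to 1.22, 4.14, 4.80 and 4.67 (0.87 ± 0.22, edgeR adjusted p = 0.0382). In all, 4 of 7 members were higher and none lower, with a median log2 fold change of 0.87, where 5.11% of 6595 genes passed (3.55% higher, 1.56% lower) and the median was -0.004. The Il6st call ended in 7 of 14 alternatives, among them sums at equal depth (0.56, adjusted p = 0.399) and leaving out tumour 2, 3 or 4 (adjusted p = 0.185, 0.0524 and 0.205). The Socs3 call ended in 9 of 14: 0.35 with the score on thinned wells (adjusted p = 0.495), 0.68, 1.07 and 0.92 without tumours 2, 3 and 4 (0.394, 0.0683 and 0.251), and adjusted p = 0.0775 by DESeq2.

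Of 38 further genes of the pathway, 29 were tested, and 9 rose and none fell (median 0.66). All 9 were among the 14 genes known as targets of STAT3 or of the acute-phase response. The largest were the acute-phase genes Saa3 (log2 fold change 3.59 ± 0.29), Lcn2 (2.90 ± 0.42) and Lbp (2.52 ± 0.35) and the kinase gene Pim1 (1.69 ± 0.25), with edgeR adjusted p of 1.5e-05 to 0.00135. None of 8 signalling genes passed, Jak1 and Stat3 among them. Il6ra (0.56 ± 0.38, adjusted p = 0.568) and Il11ra1 (1.02 ± 0.35, adjusted p = 0.133) did not pass either. The immediate-early list, whose genes dissociation of tissue is known to induce, was also higher in the upper inflammatory wells (83.1 to 133 per 10000 on average, in 4 of 4 tumours), and markers of pericytes (4.55 to 1.84), smooth muscle (6.50 to 3.43) and endothelium (0.433 to 0.106) were lower in 4 of 4. The median mitochondrial share was lower in 4 of 4 tumours too (10.75 to 6.77%). Their part in these results was not tested. Outside the upper immediate-early tercile, Il6 and Lif kept their calls, and Il6st did not (adjusted p = 0.146).

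Along the progenitor list, Il6 and Il11 went opposite ways. Il6 stood at 0, 0.380, 0.446 and 0.0453 in the lower terciles and at 0.272, 4.93, 1.35 and 3.10 in the upper ones, higher in 4 of 4 tumours (log2 fold change 3.42 ± 0.56, edgeR adjusted p = 0.00586). Without tumour 2 the change was 3.20 (adjusted p = 0.0543). Il11 fell from 3.46, 3.84 and 5.68 to 0.322, 0.382 and 0.251 in tumours 2 to 4 (-3.61 ± 0.34, edgeR adjusted p = 0.00045). In tumour 1 it was 0 and 0.0906, and this call held in all 13 alternatives in which Il11 was tested. Il6st rose from 2.09, 1.0, 1.99 and 1.09 to 3.08, 1.97, 2.63 and 3.24 (0.97 ± 0.23, edgeR adjusted p = 0.0314), a call lost without tumour 2 or 4 (adjusted p = 0.152 and 0.229) and at equal depth (0.27, adjusted p = 0.718). Lif (0.37 ± 0.62), Osmr, Lifr and Socs3 (0.59 ± 0.25, adjusted p = 0.212) did not pass.

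Of the members, 2 were higher and 1 lower (median 0.37), where 8.62% of 7597 genes passed (4.91% higher, 3.71% lower) and the median was -0.01. In the pathway list 6 of 30 genes rose and 2 fell (median 0.31). Those named among the risers are Lbp (3.13), the transcription factor genes Cebpd (1.52) and Myc (1.28), and Pim1 (1.32). Il11ra1, the receptor for the cytokine that was low in these wells, rose too (1.27 ± 0.30, edgeR adjusted p = 0.0301), and Il6ra stood at 1.10 ± 0.35 (adjusted p = 0.0991). Among those that fell, the protease inhibitor gene Timp1 fell by 1.29. Immediate-early genes were higher in 3 of 4 tumours (74.7 to 125 per 10000). Markers of telocytes, subepithelial cells that make BMP and WNT ligands, were lower in 4 of 4 (3.9 to 1.27), as were those of smooth muscle (5.75 to 2.45) and of cycling cells (2.96 to 0.569) and the median mitochondrial share (8.33 to 6.96%). Their part in these results was not tested.

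Wells rich in wound genes held more Lif and Il11, and less clearly more Il6. Lif stood at 0, 0.251, 0.0770 and 0.222 in the lower terciles and at 0, 2.85, 0.472 and 2.73 in the upper ones (log2 fold change 3.44 ± 0.30, edgeR adjusted p = 6.6e-06). Il11 stood at 0, 0.269, 0.366 and 0.0927 against 0.151, 2.47, 2.68 and 4.79, higher in 4 of 4 tumours (3.74 ± 0.37, edgeR adjusted p = 1.4e-05). Both calls held in all alternatives in which they were tested but the fit without the tumour block (adjusted p = 0.138 and 0.0604). Il6 went from 0.173, 2.01, 0.462 and 0.761 to 0, 4.54, 0.934 and 1.99, higher in 3 of 4 tumours (1.19 ± 0.25, edgeR adjusted p = 0.00805). That call ended in 6 of 13 alternatives, with 0.28 (adjusted p = 0.607) where wells were scored at equal depth, and adjusted p = 0.0812 and 0.214 without tumours 3 and 4.

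The receptor chain and the inhibitor went the other way without passing. Il6st stood at 3.28, 2.30, 2.95 and 2.49 in the lower terciles and at 1.81, 1.45, 1.96 and 1.97 in the upper ones, lower in 4 of 4 tumours (-0.57 ± 0.19, edgeR adjusted p = 0.101). Socs3 was lower in 4 of 4 tumours too (4.45 ± 2.44 to 2.80 ± 1.44, n = 4; -0.65 ± 0.23, edgeR adjusted p = 0.123). Of the members, 3 were higher and none lower (median -0.08), where 6.83% of 6270 genes passed (3.65% higher, 3.17% lower) and the median was 0.01. In the pathway list 5 of 27 genes rose and 2 fell (median -0.10). Among the largest rises were those of Timp1 (2.52 ± 0.33), the haptoglobin gene Hp (2.37 ± 0.34) and Lcn2 (2.31 ± 0.38), and Il6ra (-1.28 ± 0.35, edgeR adjusted p = 0.0359) and the AP-1 subunit gene Junb (-0.67 ± 0.19, adjusted p = 0.0477) fell. Il11ra1 stood at -0.61 ± 0.31 (adjusted p = 0.309). The immediate-early list was lower in the upper wound wells (148 to 84.9 per 10000, lower in 3 of 4 tumours). Telocyte markers were higher in them in 4 of 4 tumours (2.25 to 4.65), and their part in the rise of Il11 was not tested.

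**Figure D2:**
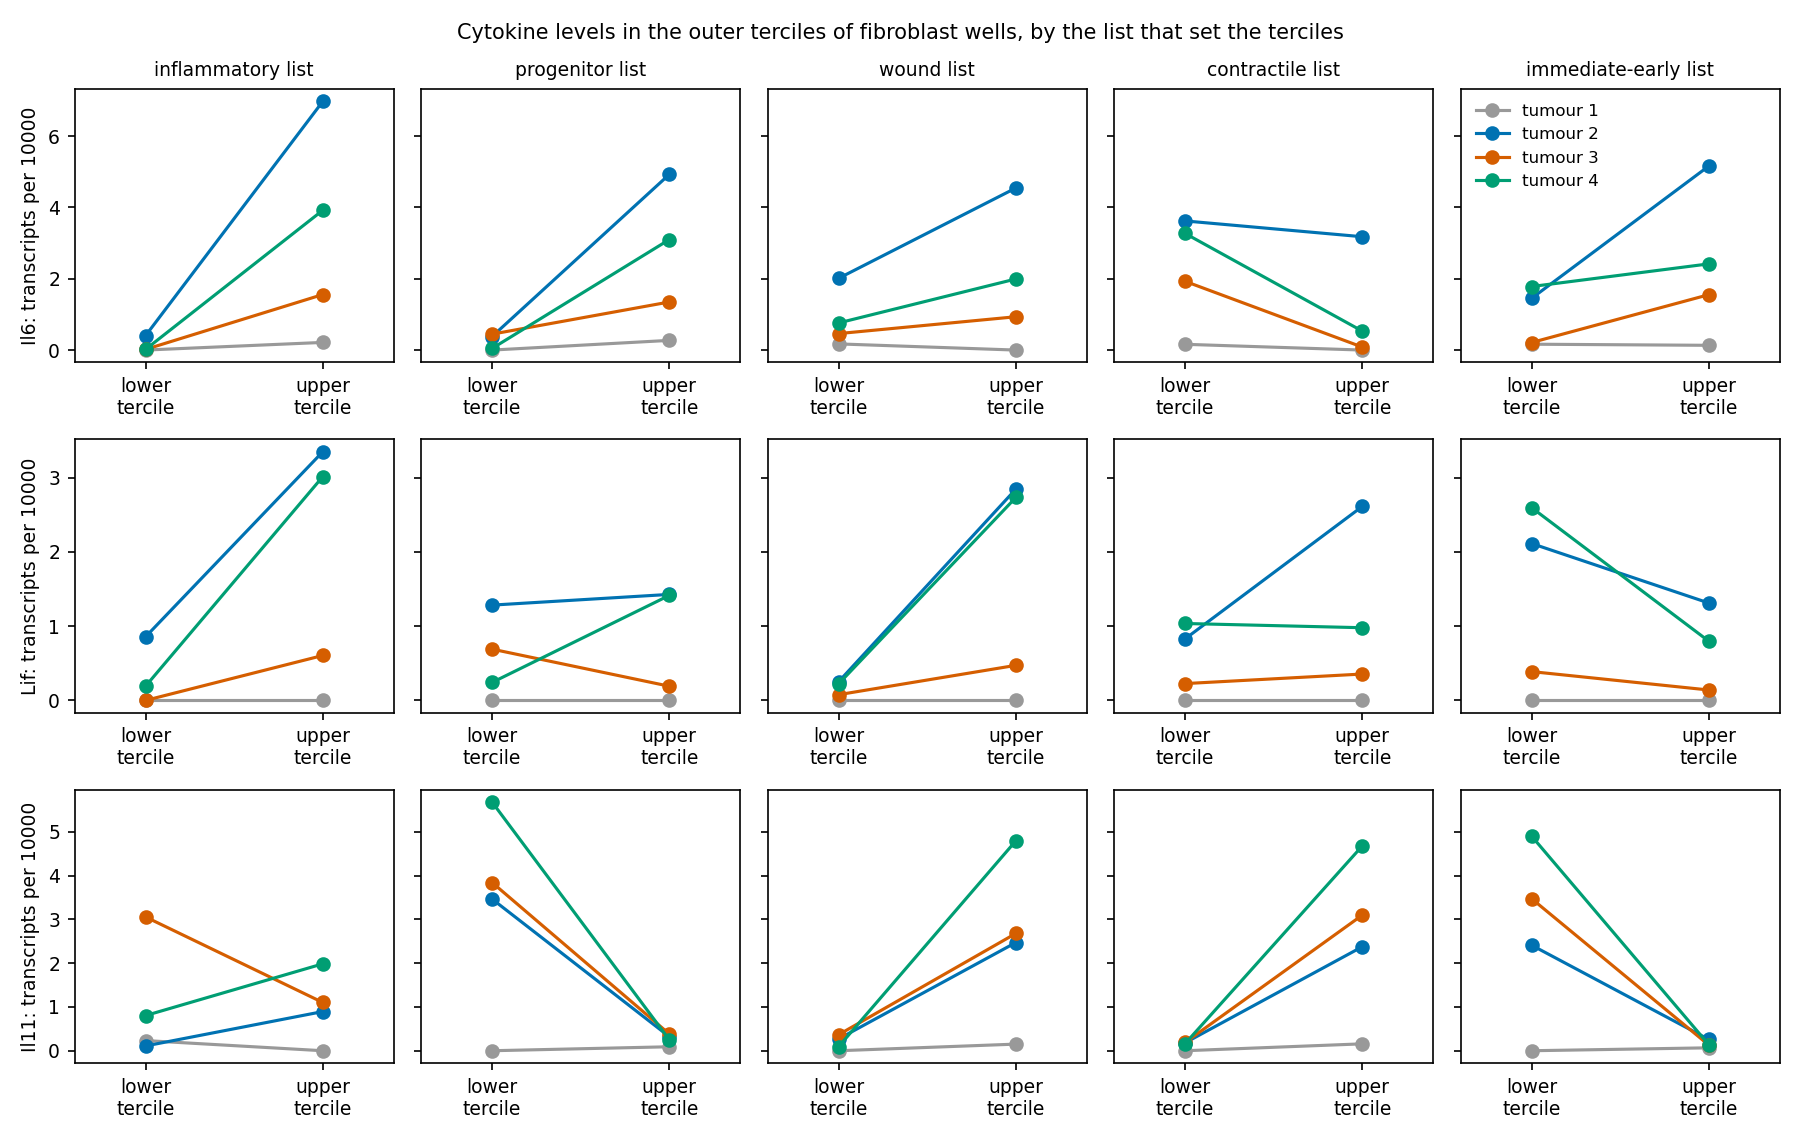
Levels of Il6, Lif and Il11 (transcripts per 10000, rows) in the lower and upper tercile of fibroblast wells by each of 5 lists (columns); 1 line per tumour. Il11 falls along the progenitor and immediate-early lists and rises along the wound and contractile lists in tumours 2 to 4 (for example 0.162 to 4.68 by the contractile list in tumour 4), while Il6 rises along the inflammatory and progenitor lists.

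When the wells were divided by the upper terciles of the inflammatory and wound lists at once, Lif was high where both lists were. Il6 stood at 5.79 ± 4.13 (SD, n = 3) in 61 wells upper in both, at 2.07 ± 1.52 (n = 4) in 147 wells upper in the inflammatory list alone, at 0.356 ± 0.576 in 147 wells upper in the wound list alone and at 0.368 ± 0.492 in 273 wells upper in neither. Lif stood at 4.35 ± 2.75 in wells upper in both, against 0.595 ± 0.535, 0.402 ± 0.612 and 0.165 ± 0.184. Il11 stood at 2.82 ± 1.99 and 2.75 ± 1.81 in the wells upper in both and in the wound list alone, and at 0.310 ± 0.258 and 0.123 ± 0.0955 in the others. Socs3 ranged only from 2.69 ± 1.32 (wound alone) to 4.13 ± 1.97 (inflammatory alone). These 4 sets of wells were formed after the terciles had been compared and are described without a test. Tumour 1 had 1 well upper in both, which is left out. The other means include tumour 1, so they are not over the same tumours. In tumours 2, 3 and 4, Il11 stood at 1.30, 2.10 and 5.07 in wells upper in both. By the wound list alone it stood at 3.15, 3.01 and 4.60. Il6 stood at 10.3, 2.20 and 4.87 in wells upper in both and at 3.33, 1.22 and 3.37 by the inflammatory list alone. For Lif these were 5.51, 1.21 and 6.33 against 0.984, 0.290 and 1.10.

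**Figure D3:**
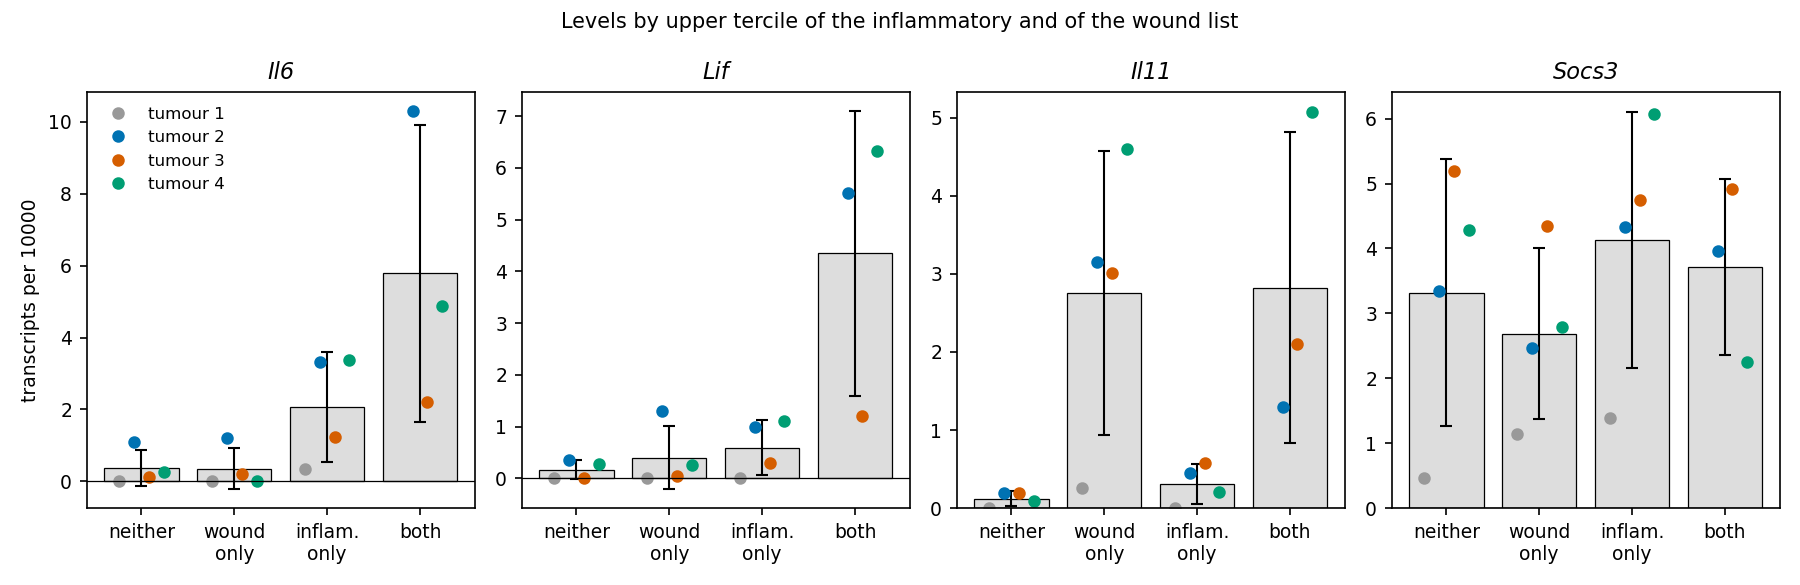
Levels (transcripts per 10000) of Il6, Lif, Il11 and Socs3 in fibroblast wells upper in neither list, in the wound list only, in the inflammatory list only or in both; bars are means, lines SD, points tumours. Lif stands at 4.35 in wells upper in both and at 0.165 to 0.595 in the others, and Il11 is high in both sets of upper wound wells.

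Along the contractile list, Il11 rose, and Il6 and Il6st fell. Il11 stood at 0, 0.181, 0.189 and 0.162 in the lower terciles and at 0.157, 2.38, 3.10 and 4.68 in the upper ones, higher in 4 of 4 tumours (log2 fold change 4.0 ± 0.29, edgeR adjusted p = 9.7e-06). This call held in all 13 alternatives in which Il11 was tested (2.98 to 4.30). Il6 went from 0.162, 3.62, 1.93 and 3.27 to 0, 3.18, 0.0833 and 0.531, lower in 4 of 4 tumours but by little in tumour 2 (-2.28 ± 0.51, edgeR adjusted p = 0.0102). It was -3.44 without tumour 2, and the call ended without tumour 3 (-1.59, adjusted p = 0.113) or 4 (-2.07, 0.124) and outside the upper immediate-early tercile (-1.0, 0.151). Il6st went from 4.52, 1.80, 2.55 and 2.96 to 2.05, 1.49, 2.14 and 1.48 (-0.79 ± 0.21, edgeR adjusted p = 0.0275), a call lost in 8 of 14 alternatives, including those without tumour 2, 3 or 4 (adjusted p = 0.0563, 0.0760 and 0.288).

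Lif (0.59 ± 0.31), Osmr (-0.40 ± 0.23), Lifr (0.73 ± 0.28, higher in 4 of 4 tumours, edgeR adjusted p = 0.137) and Socs3 (-0.30 ± 0.21) did not pass. Of the members, 1 was higher and 2 lower (median -0.30), where 9.37% of 7225 genes passed (4.24% higher, 5.13% lower) and the median was 0.02. Both receptors proper fell, Il11ra1 by 1.27 and Il6ra by 1.15 on the log2 scale (edgeR adjusted p = 0.0265 and 0.0357). In the pathway list 2 of 29 genes rose, among them Timp1 (1.53 ± 0.24), and 5 fell (median -0.13), among them Lbp (-2.85 ± 0.24) and Cebpd (-1.02 ± 0.22). Markers of telocytes were higher in the upper contractile wells (0.680 to 6.17 per 10000, in 4 of 4 tumours), as were those of smooth muscle (1.96 to 6.28, in 4 of 4). Their part in these results was not tested.

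Immediate-early genes went with less Il11 and Lif. Il11 stood at 0, 2.41, 3.47 and 4.90 in the lower terciles and at 0.0666, 0.257, 0.128 and 0.137 in the upper ones (log2 fold change -4.35 ± 0.44, edgeR adjusted p = 0.00164), with adjusted p of 0.0924 and 0.0681 without tumours 3 and 4. Lif went from 2.11, 0.388 and 2.60 to 1.31, 0.140 and 0.797 in tumours 2 to 4 (-1.37 ± 0.28, edgeR adjusted p = 0.0470), a call lost in 7 of 12 alternatives, including those without tumour 2, 3 or 4 (adjusted p = 0.166, 0.421 and 0.628). Socs3 stood at 0.987, 2.35, 3.57 and 1.71 against 1.46, 4.70, 6.26 and 6.28, higher in 4 of 4 tumours, with 1.04 ± 0.28 (edgeR adjusted p = 0.0949). Il6 stood at 0.165, 1.45, 0.212 and 1.78 against 0.133, 5.16, 1.55 and 2.42 (1.46 ± 0.40, edgeR adjusted p = 0.103). Both passed without tumour 1 (adjusted p = 0.00137 and 0.00451), as did Il6st (0.69, adjusted p = 0.0159), which stood at 0.23 ± 0.38 with it.

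Of the members, none was higher and 2 were lower (median 0.13), where 1.42% of 7531 genes passed (0.677% higher, 0.744% lower) and the median was 0.01. Without tumour 3 no gene passed in edgeR, while 539 had an unadjusted p under 0.05. In the pathway list 2 of 30 genes rose, Junb (1.96 ± 0.27) and Myc (1.66 ± 0.31), and 2 fell, among them Timp1 (-2.09 ± 0.36). Il6ra (1.0 ± 0.39, adjusted p = 0.268) and Il11ra1 (0.34 ± 0.39, adjusted p = 0.772) did not pass. The wound list was lower in these wells (94.5 to 17.0 per 10000, lower in 3 of 4 tumours). Pericyte markers (4.26 to 1.57), cycling markers (1.82 to 0.606) and the median mitochondrial share (8.98 to 7.17%) were lower in 4 of 4. Their part in these results was not tested.

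**Figure D4:**
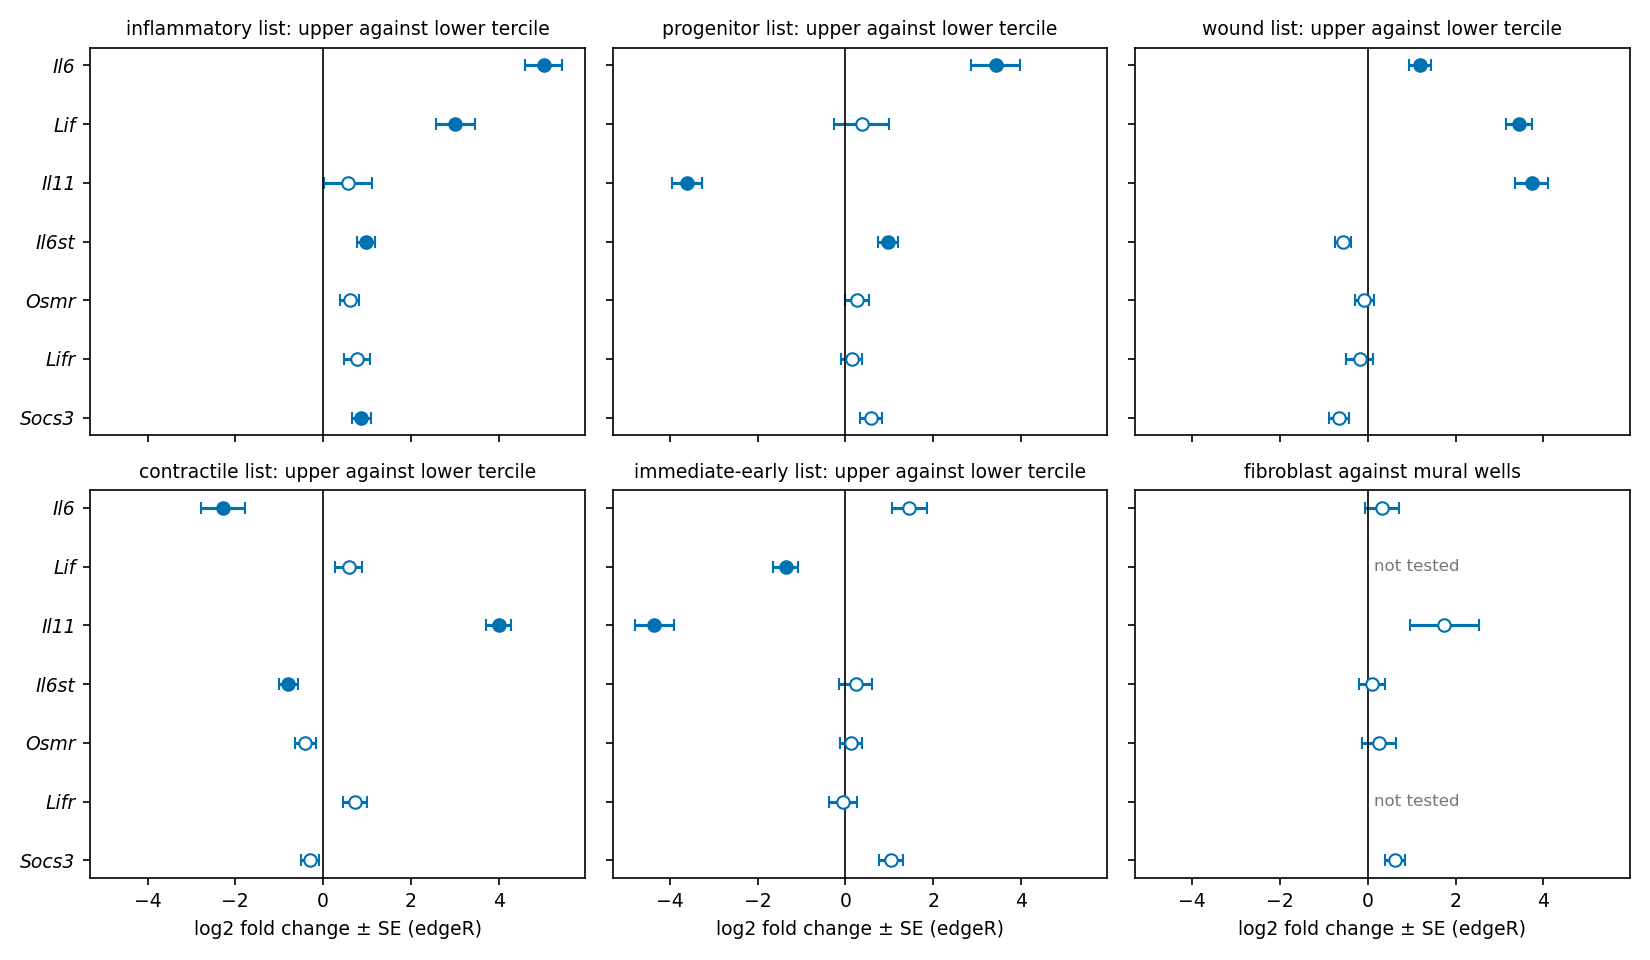
Log2 fold change ± SE (edgeR) of the 7 genes in 6 comparisons; filled points passed an adjusted p of 0.05. Il6 passes by 4 of the 5 lists and Il11 by 4, with opposite signs by the progenitor and contractile lists, and no gene passes between fibroblast and mural wells.

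Fibroblast wells were also compared with 62 mural wells (8, 20, 17 and 17), those rich in markers of smooth muscle or pericytes, the contractile cells of muscle and vessels. Pericyte-like and smooth-muscle-like wells also held a median of 7 of 9 fibroblast markers, at 242 and 145 transcripts per 10000. Fibroblast wells of no other group held a median of 8, at 585. No doublet caller was run, so mixed wells were not told apart. None of the 5 members tested passed in the main edgeR fit (1 had an unadjusted p under 0.05; median log2 fold change 0.32), where 13% of 3405 genes passed (7.2% higher, 5.79% lower) and the median was 0.002. Il6 stood at 0, 2.28, 0.378 and 3.49 in mural wells and at 0.115, 3.30, 0.83 and 1.85 in fibroblast wells, higher in fibroblast wells in 3 of 4 tumours (0.32 ± 0.39, edgeR adjusted p = 0.665). Il6st stood at 1.18, 2.73, 2.72 and 2.70 against 2.90, 1.70, 2.41 and 2.37 (0.10 ± 0.29, adjusted p = 0.884), so tumour 1 differed in direction from the other 3. Il11 (1.75 ± 0.78, adjusted p = 0.197), Osmr (0.26 ± 0.38, adjusted p = 0.728) and Socs3 (0.62 ± 0.23, adjusted p = 0.124) did not pass, and Lif and Lifr were too low to be tested. Il11 did pass in 1 of its 9 alternatives, which gave log2 fold changes of 0.978 to 2.73. In the pathway list 5 of 16 genes were higher in fibroblast wells and none lower (median 0.86): Saa3 (5.44 ± 0.36), Lbp (4.34 ± 0.43), Timp1 (2.53 ± 0.32), Pim1 (1.19 ± 0.31) and Cebpd (0.96 ± 0.25). Il6ra and Il11ra1 were not tested there.

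Mural wells were not alike. In what follows, a tumour with under 3 wells of a group is left out of that group. Il6 was found in 10 of 23 pericyte-like wells, at 2.42, 1.69 and 5.34 per 10000 in tumours 2 to 4, and in 1 of 38 smooth-muscle-like wells. Median depths were 10174 and 3650 transcripts, and the pericyte-like levels rest on few wells: that of tumour 4 comes from 40.2 transcripts in 2 wells. Osmr was found in 69.6% of pericyte-like and 21.1% of smooth-muscle-like wells, and Socs3 in 91.3 and 36.8%. Lif was found in 5 of 23 and 0 of 38. Thinned to 2000 transcripts (22 and 31 wells left), the shares were 31.8 and 3.23% for Il6, 13.6 and 6.45% for Osmr and 59.1 and 25.8% for Socs3. The Osmr shares come from 3 and 2 wells, at and under the limit of 3, so Osmr does not separate the groups at this depth. Il6 was found in 1 smooth-muscle-like well. Wells rich in red-cell genes are the nearest to a background: Il6st, Osmr, Il11 and Socs3 were each found in 1 of 19 (5.26%) and the others in none, at a median of 3263 transcripts. Outside red-cell genes that median was only 913, and these wells held a median of 6 of 9 fibroblast markers, so their shares are not at the depth of the other groups.

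Among fibroblast wells, 44 were telocyte-like by markers such as Bmp5, Bmp7 and Sox6. They held Il11 and Lifr but little Il6. Il6 was found in 1 of 44, against 163 of 570 of the other fibroblast wells (28.6%), at median depths of 10271 and 8910. Lifr was found in 29 of 44 (65.9%) against 29.1%, at levels of 0.752, 1.16, 1.37 and 1.11 per 10000 against 1.53, 0.353, 0.573 and 0.387, higher in tumours 2 to 4. Il11 was found in 16 of 44 (36.4%) against 19.5%. Its levels of 0.376, 4.31, 1.55 and 13.9 were higher than the 0.0425, 1.45, 1.48 and 1.45 of the other fibroblast wells in tumours 2 to 4, by little in tumour 3, and that of tumour 4 came from 2 of 9 wells. Tumour 1 had 1 transcript on each side, which is under the limit of 3. Thinned to 2000 transcripts (44 and 520 wells left), Il6 was found in 0 of 44 telocyte-like wells, which allows a share of up to 6.82%, and in 15.2% of the other fibroblast wells. Lifr was found in 31.8 and 8.08% of them and Il11 in 22.7 and 9.04%. Cajal-like wells, named for the pacemaker cells of gut muscle, held Il6 in 0 of 18 and Socs3 in 72.2%. For Il6 that allows a share of up to 16.7%, above the 15.2% of the other fibroblast wells when thinned, so these groups are not told apart by it. Cycling wells held Il6 in 7 of 13, at a median of 28197 transcripts and a level of only 0.309 ± 0.352 (n = 2), and in 2 of 13 when thinned. These groups are described without a test.

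**Figure D5:**
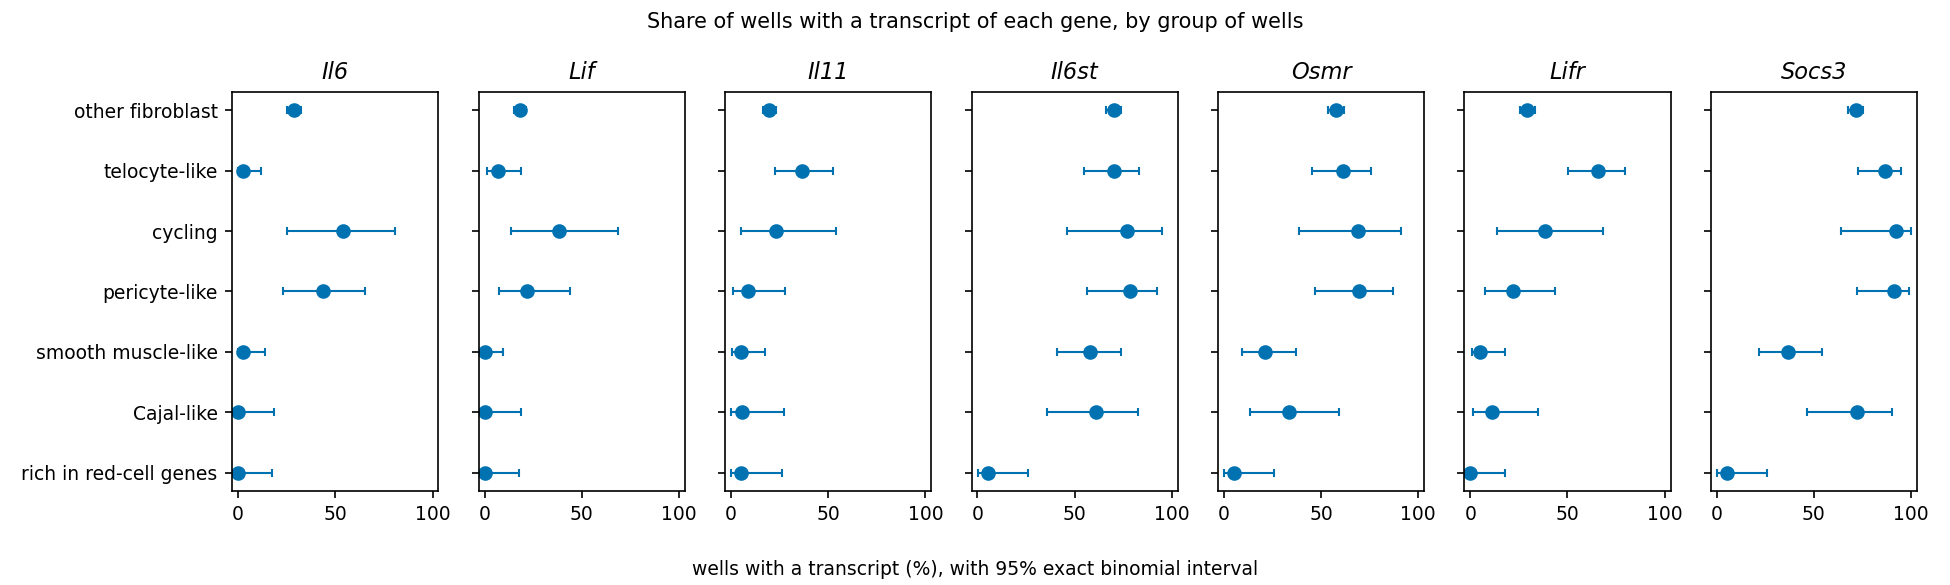
Share of wells (%) with a transcript of each of the 7 genes in 7 groups of wells, at each well's full depth, with exact (Clopper-Pearson) 95% binomial intervals that cover counting error only. Il6 is near 0 in telocyte-like and smooth-muscle-like wells and was found in 0 of 18 Cajal-like wells, which allows up to 16.7%. Lifr is highest in telocyte-like wells (65.9%), and wells rich in red-cell genes stay at or under 5.26%.

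The genes most like each member across the 599 fibroblast wells of tumours 2 to 4 were named by the mean within-tumour Pearson correlation of log2(1 + transcripts per 10000), out of 8050 genes; wells share a plate and a depth, and the values are descriptions. Il6 went with Ptx3 (0.49), a secreted pentraxin, Tnfaip6 (0.45), a hyaluronan-binding protein, and the metallothionein Mt2 (0.45). Il11 went with 9930013L23Rik (0.66), the metalloproteinase Mmp10 (0.64) and Il1rl1 (0.60), the receptor for IL-33. Lif went with Timp1 (0.33), Ccl2 (0.32) and the hyaluronan synthase Has2 (0.27). For Socs3 the nearest were Fos (0.50), Junb (0.46) and Zfp36 (0.45), all immediate-early genes. The nearest to Il6st were C1ra (0.38), Lamp2 (0.35) and Cxcl12 (0.33), and to Lifr the heparanase Hpse (0.40), Tmem176b (0.40) and Col18a1 (0.36). Osmr had the lowest leading value, 0.27 with the cathepsin Ctsl, ahead of 4933426M11Rik (0.27) and Ifitm3 (0.26). Among members the highest value was 0.36 for Il6 with Lif (0.20 to 0.52 over the tumours), and Il6 with Socs3 stood at 0.14. Mmp10, Ccl2, Cxcl12, Fos and Zfp36 belong to the lists that set the terciles above.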

How the data were processed

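SORT-seq, which sorts 1 cell into each well, with CEL-Seq2 libraries was used on 4 tumours, 1 plate each, per the labels' protocols. The authors deposited expected counts: transcripts per gene and well, with unique molecular identifiers (UMIs) corrected for saturation, and all values lay within 0.00499 of the correction of a whole UMI count. BWA and the mm10 build were used, per the submitters' processing notes. The counting program was not given in the sources used here. No 2 plates were copies of each other (chi-square per gene of 5.15 to 45.7). Deeper plates carry less counting error: tumour 1 held 612734 transcripts and the others 2727191 to 3165550.

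A well joined a named group when its mean z-score over the group's markers was highest and at least 1 with at least 3 markers found; fibroblast wells are those with at least 3 fibroblast markers that were telocyte-like, cycling or of no group. No doublet caller was run. Counts were rounded, summed per tumour and side (at least 5 wells), filtered by filterByExpr, scaled by TMM and tested by edgeR 4.0.16 (R 4.3.3) with the tumour as a block. The block is the tumour from which both sums come, so pairing is by origin. An adjusted p under 0.05 is a call. Scripts used Python 3.11.15, numpy 2.4.6, pandas 2.3.3 and scipy 1.17.1, and were tested on simulated data. Named pathway genes were, in each comparison, up to 4 per direction that passed with the largest change, with Il6ra and Il11ra1 always; for likeness, the 3 highest genes found in at least 10% of fibroblast wells. Alternatives were DESeq2 1.42.0, DESeq2 size factors in edgeR, no filter, whole UMIs, wells from 2000 transcripts, a split at the median, scores on wells thinned to 2000, no block and each tumour left out. A limit of 15% mitochondrial transcripts was applied to the mean levels only, and no comparison was refitted with it. A gene that the filter dropped from an alternative fit was not counted there. Sums on thinned wells and wells outside the upper immediate-early tercile were added after seeing the data. The members and lists were chosen with earlier results of these data known. The values of 1 gene of the pathway list are not reported here, though it is in the list's counts and medians.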

Additional observations from a re-analysis of the deposited data

Results flagged for a closer look

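The share of fibroblast wells with a Socs3 transcript was 33.3% in tumour 1 and 75.0 to 75.4% in tumours 2 to 4, so that 1 sample stood far from the others. Of 14 groups of 4 values examined, this was the 1 that stood out so far, and chance does this to about 1 in 20 groups. Among wells thinned to 2000 transcripts the share was 25.0% in tumour 1 and 42.6, 53.1 and 42.6% in the others. Tumour 1 also had the highest median share of mitochondrial transcripts (14.4% against 5.25 to 6.14%) and the most spike-in RNA (44.0% against 5.54 to 8.59%); their part in the Socs3 value was not tested.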

How the results depend on the processing

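For the 7 members the comparisons gave 40 results and 512 alternative values: 415 kept direction and side of the threshold, 55 lost a call, 11 gained one and 31 changed direction. The mean levels of all 7 moved by less than 1 SD in every alternative. Leaving out a tumour cannot move a mean by 1 SD of the same tumours, so those alternatives do not test stability. Over the alternatives the mean level ranged from 0.931 to 1.99 for Il6, from 0.603 to 1.20 for Lif and from 1.25 to 1.37 for Osmr. Without the tumour as a block, the genes called fell from 337 to 48 (inflammatory), 677 to 283 (contractile), 428 to 39 (wound), 655 to 358 (progenitor) and 107 to 13 (immediate-early); Il11 kept its contractile, progenitor and immediate-early calls, and Il6 its progenitor call (adjusted p = 0.0408) but not its inflammatory one (0.0877). DESeq2 called 221 (inflammatory) and 274 (wound). With no filter the counts were 701, 1121, 716, 1334 and 654 in the order above, and 995 against 442 for fibroblast against mural wells (663 higher, 332 lower, against 245 and 197), where the median of all genes shifted to 0.42. With score and sums on thinned wells, which hold fewer transcripts and so fewer testable genes, they were 107, 183, 84, 127 and 38. Outside the upper immediate-early tercile, 188 (inflammatory) and 206 (wound) were called. For the immediate-early list, wells from 2000 transcripts gave 199 and scoring on thinned wells 44.

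Leaving out 1 tumour gave 80 (without tumour 4) to 571 (without 1) calls by the inflammatory list, 256 (without 3) to 971 (without 1) by the contractile, 121 (without 4) to 709 (without 1) by the wound, 178 (without 4) to 1078 (without 1) by the progenitor and 0 (without 3) to 1084 (without 1) by the immediate-early list, and 292 (without 4) to 695 (without 1) against mural wells. All members whose direction changed had not passed. Il11 by the inflammatory list was -0.59 with a split at the median, -0.15 scored on thinned wells, -0.16 with thinned sums and -0.12 to 1.89 with a tumour left out. Osmr by the contractile list was 0.20 with thinned sums. By the wound list Osmr was 0.022 with no filter, 0.090 split at the median, 0.24 outside the upper immediate-early tercile and -0.25 to 0.19 with a tumour left out, and Lifr -0.34 to 0.25. By the progenitor list, split at the median, scored on thinned wells and with a tumour left out, Lif was -0.16, -0.44 and -0.60 to 1.23, and Lifr -0.10, -0.083 and -0.032 to 0.31; Lifr was -0.19 and Osmr -0.052 outside the upper immediate-early tercile, and Osmr -0.48 with thinned sums. By the immediate-early list Lifr was 0.12 without the block, 0.044 by DESeq2, 0.011 in wells from 2000 transcripts, 0.13 split at the median and 0.044 scored on thinned wells; with a tumour left out Lifr was -0.26 to 0.39, Il6st -0.11 to 0.69 and Osmr -0.15 to 0.30. Against mural wells Il6st was -0.12 to 0.35 and Osmr -0.014 to 0.61 with a tumour left out. Among pairs of genes, the difference for Lif and Il11 was 6.43 points unthinned and -6.44 to 2.97 with a tumour left out, for Lif and Socs3 15 unthinned, 0.063 thinned to 4000 and -11.9 to 6.17, and for Lifr and Osmr -0.28 to 5.71. The causes were not tested.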

Other observations

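Oncostatin M, cardiotrophin and IL-27 transcripts were rare in fibroblast wells. Oncostatin M, the ligand of the Osmr chain, was found in 0 of 629 fibroblast wells (0 of 220 allows a share of up to 1.36% in tumour 2). The cardiotrophin gene Ctf1 was found in 0, 2.73, 4.27 and 7.74% of wells in tumours 1 to 4, and Il27 and Ebi3, the subunits of IL-27, each in 1 well of tumour 3. Cntfr, the receptor for ciliary neurotrophic factor, was found in 1.82 to 4.17% of wells. The signalling genes were widespread, with Jak1 at 2.52, 2.25, 2.75 and 2.52 and Stat3 at 1.53, 2.74, 2.65 and 2.80 transcripts per 10000.

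Of the 683 wells under 1000 transcripts, 8 held Il6, 9 Lif, 13 Il11 and 24 Socs3. Il11 there stood at 0.902 ± 1.21 transcripts per 10000 (SD, n = 4), against 1.24 ± 0.824 in fibroblast wells. The first value rests on 1, 3, 0 and 10 transcripts in tumours 1 to 4, at or under the limit of 3 in tumours 1 to 3. Tumour 4 alone stood at 2.66.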
